A study of Homo sapiens with 3 samples.

Results

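Genes of ribosome biogenesis and of RNA polymerase I are described here on 3 Affymetrix arrays of a colorectal cancer line. The 45 genes were listed by role in ribosome production, not by their values. A member is measured by the probe sets to which the platform annotation gives that gene symbol alone, and the brightest of them by mean log2 signal stands for the gene. On this rule 38 of the 45 members were measured, among 19775 genes on the arrays. NOP56, DKC1, BOP1 and PPAN have only probe sets with several symbols, no listed probe set carries GNL3, DDX18 or EBNA1BP2, and these 7 were not analysed here. All 38 measured members lay above the floor for low signals, 50.5, on every array. The 3 groups hold 1 array each: cells with a virus for full-length LATS2, a kinase of the Hippo pathway (LATS2), cells with a virus for its residues 1 to 625, which end before the kinase domain (LATS2N), and cells with a control virus carrying the empty vector (control). All were grown in DMEM with 10% serum, and the design text calls the expression stable. The sample labels name the line SW620 and the design text names SW480, and these arrays were not used to decide between them. Neither the promoter of the viruses nor the number of clones is given in the sources used here.

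A ribosome begins in the nucleolus, where RNA polymerase I copies the ribosomal RNA genes into a long precursor. Small nucleolar RNPs modify that precursor, a large complex called the small subunit processome folds and cuts it, and separate sets of factors build the small and the large subunit and release them for export. Cancer cells with high MYC activity are known for strong expression of these genes, and colorectal cancer lines with an active beta-catenin pathway usually belong to that class.

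The colon epithelial markers EPCAM, KRT8, KRT18 and KRT19 were bright on every array, and 9 of the 12 measured epithelial markers exceeded the floor on all 3. CDX1, LGALS4 and CEACAM5 did so on only some arrays. The summed signal of the epithelial list was 130645 on LATS2, 132125 on LATS2N and 124517 on control. That sum rests mostly on the bright keratins and EPCAM. CDH1 went the other way, with 2792 on LATS2 and 3567 on LATS2N, against 4421 on control. So did VIL1, with 3948 on LATS2 and 4666 on LATS2N, against 5013 on control. The defining blood marker PTPRC and the endothelial marker CDH5 were below the floor on every array, and only COL1A1 of the 5 fibroblast markers, PECAM1 of the 3 endothelial ones and LYZ of the 3 blood ones exceeded it throughout. The trimmed mean signal was the same on all arrays, 500.1, and the median over all probe sets was 49.4 on LATS2, 51.0 on LATS2N and 51.1 on control. With 1 array per group no difference could be tested, and every statement below describes these arrays by size.

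The genes of ribosome biogenesis stayed close to their control signals with either construct, as did most genes of like brightness. No member was 2-fold higher or lower in any comparison. On the LATS2 array 0 of 38 members differed at least 1.5-fold from control, a size reached by 10.3% of all genes above the floor and by 3.55% of the bright genes, whose brighter array read 500 or more. On the LATS2N array it was again 0 of 38, against 8.13% of all genes and 1.78% of the bright ones. Between LATS2 and LATS2N a single member, RRP9, passed that size, where 9.34% of all genes and 3.22% of the bright ones did. The corresponding shares at 2-fold over all genes were 1.8% for LATS2 against control, 1.51% for LATS2N against control and 1.59% for LATS2 against LATS2N. Of the members, 37 belonged to the bright genes in each comparison, and those genes are their nearest background. For these 37 the median size of the log2 ratio against control, without its sign, was 0.129 on LATS2 and 0.123 on LATS2N. For all bright genes it was 0.146 and 0.127. These are bulk signals scaled per array, in which fewer expressing cells and less RNA per cell cannot be told apart.

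Over the 3 arrays together, 28 of the 38 members, 73.7%, kept their highest and lowest signal within 1.2-fold, as did 60.2% of the 7500 genes that read 500 or more on any array. The median ratio of highest to lowest signal was 1.14 for the members and 1.17 for those genes. WDR12, part of the complex that processes large subunit RNA, moved least by its brightest probe set, with a range of 1.01-fold. That probe set read 7588 on LATS2, 7530 on LATS2N and 7629 on control. A dimmer WDR12 probe set read 226 on LATS2 and 163.7 on LATS2N, against 286.1 on control. Another dim one had log2 ratios against control of -0.13 on LATS2 and 0.08 on LATS2N. The 10 members outside 1.2-fold were RRP9, RRP12, WDR75, UTP20, UTP3 and NOL6 of the small subunit pathway, the polymerase factors RRN3 and TAF1D, the snoRNP protein GAR1 and the large subunit factor RRS1. Of these only RRP12 and NOL6 have more than 1 probe set.

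**Figure D1:**
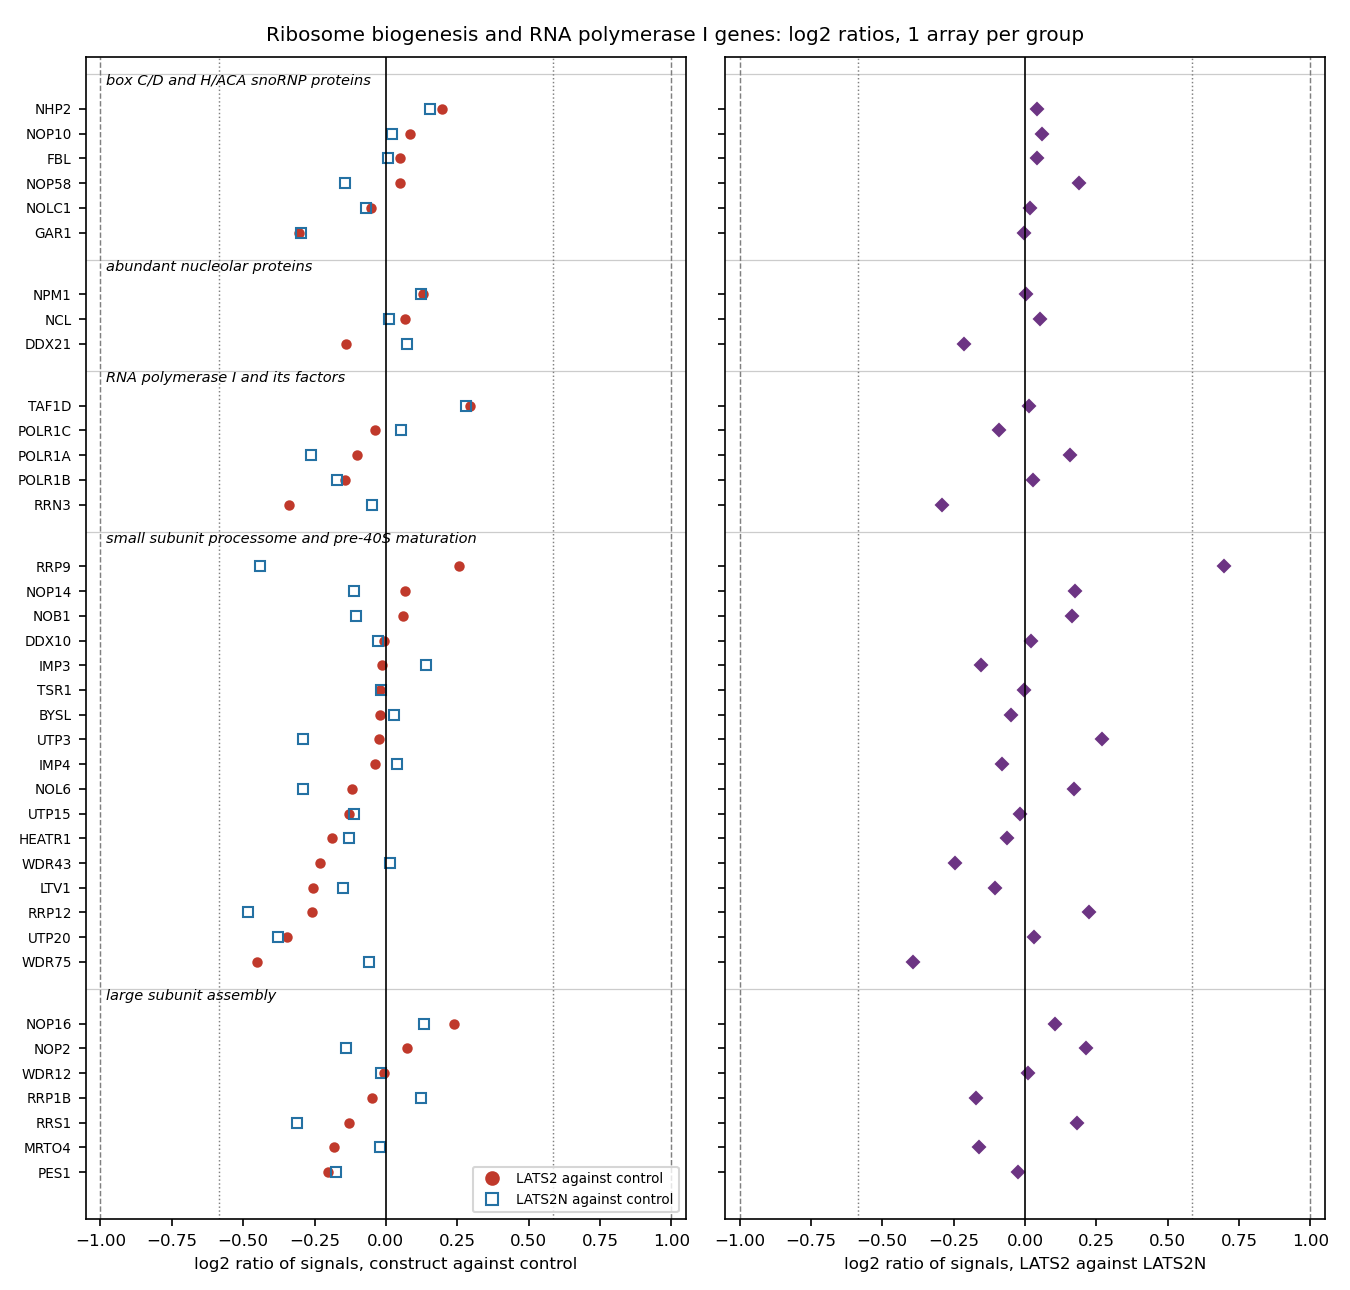
Log2 ratio of signals for each of the 38 measured members, grouped by role; left, LATS2 (filled circles) and LATS2N (open squares) against control, right, LATS2 against LATS2N; dotted lines mark 1.5-fold and dashed lines 2-fold, with 1 array per group. All points lie inside the dotted lines except RRP9 in LATS2 against LATS2N, at 0.70.

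Small as they were, the differences leaned towards lower signals with the constructs. The median log2 ratio of the members was -0.04 for LATS2 against control, where that of all genes above the floor was 0.03. For LATS2N against control these medians were -0.05 and 0.02. On the LATS2 array 26 of 38 members, 68.4%, read below control, beside 43.7% of the bright genes. On the LATS2N array 24 of 38, 63.2%, did so, beside 47.7%. Both constructs are set against the same control array, so these counts share it. They rest on 1 probe set per gene. Of the 16 members with several probe sets whose mean signal reached the floor, 3 had mixed signs on LATS2 and 8 on LATS2N. The control array held the highest signal of 19 members, 50%, beside 28.8% of the bright genes, and the lowest signal of 7, beside 37.4%. Between the constructs the lean was gone: the members' median was 0.02 for LATS2 against LATS2N, with 22 above 0 and 16 below, and that of all genes was 0.01. For single genes, the noise of a probe set was estimated from pairs of probe sets for the same gene, as a robust SD of the log2 ratio of 0.11 for LATS2 against control where the dimmer signal was above 2000, and 0.17 between 500 and 2000. This noise is between probe sets on the same arrays and holds no difference between cultures. No error was available for the medians.

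A sequence feature that the choice of genes did not use was present in the promoters of 15 members. The E-box CACGTG, a palindrome that reads the same on both strands, is bound by MYC with MAX and also by other factors such as USF1. It was searched in RefSeq promoter windows of GRCh38.p14, 300 bases that run from 250 before to 50 after an annotated gene start. A window was available for 33 of the 38 measured members, and 15 of these genes, 45.5%, hold the E-box. Among the other genes of the pathway lists it was 26 of 98, or 26.5%. The share was 10.9% among protein-coding genes of the table, 8.77% among all its genes and 14% among the bright genes of these arrays. The 8 windows that follow are shown because they carry the motif in members of several roles, RRP9 among them. The windows of the polymerase I members POLR1A, POLR1B, POLR1C, RRN3 and TAF1D lack it. Each gives 30 bases of the gene's own strand, 5′ to 3′, with the motif in capitals.
RRP9 (chr3:51941892-51941921, minus strand): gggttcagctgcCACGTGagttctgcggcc
UTP20 (chr12:101280083-101280112, plus strand): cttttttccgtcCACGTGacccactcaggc
WDR43 (chr2:28894658-28894687, plus strand): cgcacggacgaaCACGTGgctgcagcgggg
NOL6 (chr9:33473894-33473923, minus strand): ggcatttccgccCACGTGggaagctatgag
PES1 (chr22:30591880-30591909, minus strand): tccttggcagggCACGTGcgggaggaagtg
FBL (chr19:39846356-39846385, minus strand): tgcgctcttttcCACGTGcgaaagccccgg
GAR1 (chr4:109815781-109815810, plus strand): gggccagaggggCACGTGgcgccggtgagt
DDX21 (chr10:68956604-68956633, plus strand): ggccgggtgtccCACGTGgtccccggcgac

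The motif lay close to the start of transcription in nearly all of these genes. Of the 15 members with an E-box, 14 have one whose first base falls between 25 bases before and 49 bases after an annotated start, 93.3%, whereas 24.6% of the 2396 genes with the motif anywhere in the window do. In RRP9 its first base is at position -5 from the start, in UTP20 at -10 and in FBL at 6. The DDX21 motif shown, at -31, lies just outside that range. The range takes in the bins where the members' motifs were most frequent, so the contrast depends on that choice. It leaves out the bin from -50 to -26, the most frequent for all genes, at 1.49%. On the arrays the members with the motif had a median log2 ratio against control of -0.12 on LATS2 and -0.11 on LATS2N, and the 18 members whose windows lack it had -0.02 on both. The share of members below control was alike with and without the motif. It was 10 of 15 and 12 of 18 on LATS2, and 9 of 15 and 11 of 18 on LATS2N. Their ranges overlapped, from -0.35 to 0.26 with the motif and from -0.45 to 0.29 without it on the LATS2 array. MYC itself read 28341 on LATS2 and 28423 on LATS2N, against 24338 on control, a log2 ratio of 0.22 for either construct. At like brightness, the platform's probe sets for GAPDH and ACTB ran from 0.02 to 0.18 on LATS2 and from -0.03 to 0.22 on LATS2N. How far the MYC ratio depends on scaling was not tested.

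**Figure D2:**
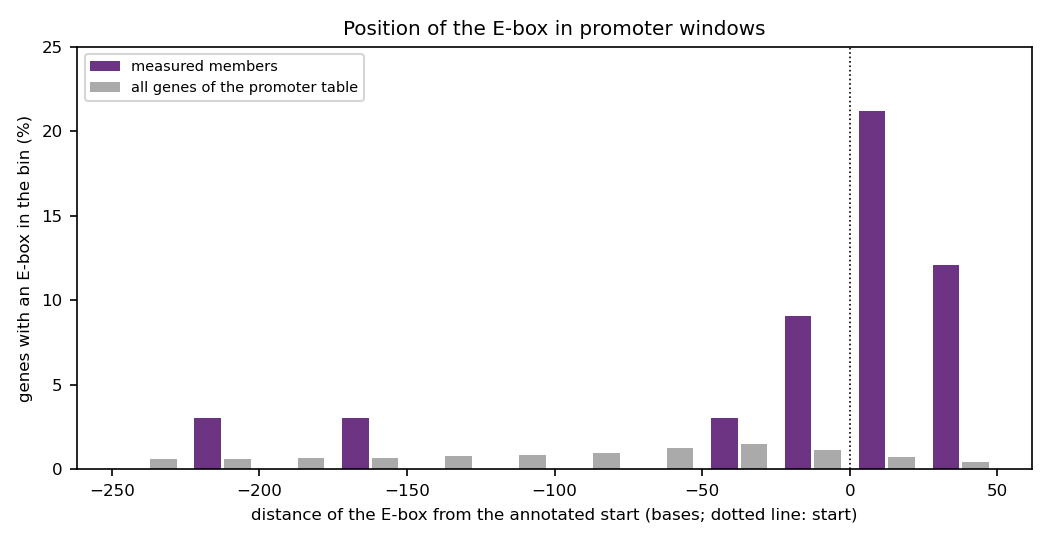
Percent of genes whose E-box begins in each 25-base bin (vertical axis) against the distance from the annotated start in bases (horizontal axis), for 33 measured members (purple) and all 27305 genes of the promoter table (grey). The members' bars stand mainly in the 3 bins next to and after the start, with the tallest at 21.2% beside 0.696% of all genes.

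Transcription of ribosomal RNA is the task of RNA polymerase I, whose catalytic core is made by POLR1A and POLR1B. POLR1A read 788.8 on LATS2 and 707.1 on LATS2N, against 847.2 on control, which is a log2 ratio of -0.10 for LATS2 and -0.26 for LATS2N. POLR1B read 5671 on LATS2 and 5567 on LATS2N, against 6266 on control, with ratios of -0.14 and -0.17. Both core subunits were thus highest on the control array by small amounts. All 3 probe sets of POLR1A went the same way in each comparison, and on the LATS2N array they gave ratios of -0.26, -0.44 and -0.67. The 4 probe sets of POLR1B were all below control on LATS2, with ratios from -0.35 to -0.06, while on LATS2N a dimmer one stood at 0.00.

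POLR1C, a subunit shared by RNA polymerases I and III, had log2 ratios of -0.04 on LATS2 and 0.05 on LATS2N against control. RRN3, the factor that brings a competent polymerase to the ribosomal promoter, read 1676 on LATS2, against 2051 on LATS2N and 2123 on control. The LATS2 array thus stood below both others, with log2 ratios of -0.34 against control and -0.29 against LATS2N. TAF1D, a component of the promoter selectivity factor SL1, went the other way, with 563.5 on LATS2 and 558.6 on LATS2N, against 459.7 on control. Its log2 ratios against control, 0.29 and 0.28, were the highest of all measured members in both comparisons. The robust SD between probe sets at that brightness was 0.24 for LATS2 against control and 0.21 for LATS2N against control. RRN3 and TAF1D have 1 probe set each.

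The other genes of polymerase I were described from a list of 15, all measured. Their median log2 ratio was -0.12 on LATS2 and -0.01 on LATS2N against control, with 12 and 8 of the 15 below 0. POLR2F, a small subunit shared by all 3 nuclear RNA polymerases, read 5457 on LATS2 and 6038 on LATS2N, against 8258 on control. At 1.51-fold lower on LATS2 than on control it was the only gene of the wider pathway lists to differ by 1.5-fold in any comparison. TTF1, which terminates ribosomal RNA transcription, came close to it, at 857.4 on LATS2 and 982.5 on LATS2N, against 1269 on control, a log2 ratio of -0.57 on LATS2.

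Small nucleolar RNPs modify the ribosomal precursor, the box C/D class by methylation and the H/ACA class by pseudouridylation. FBL, the methyltransferase of the box C/D class, read 23212 on LATS2 and 22537 on LATS2N, against 22408 on control, and its log2 ratios were 0.05 and 0.01. NOP58, a scaffold of the same particles, read 10154 on LATS2, 8901 on LATS2N and 9820 on control. NOP58 was thus a little above control on one construct array, at 0.05, and below it on the other, at -0.14.

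Among the H/ACA proteins, NHP2 was highest on LATS2 and GAR1 was highest on control. NHP2 read 20796 on LATS2 and 20188 on LATS2N, against 18152 on control, with log2 ratios of 0.20 and 0.15. GAR1 read 2901 on LATS2 and 2909 on LATS2N, against 3579 on control, and its ratio was -0.30 on both arrays. NOP10, the smallest of these proteins, had ratios of 0.08 and 0.02. These 3 proteins sit in the same particle, so its measured members did not shift in 1 direction. NOLC1, a chaperone of small nucleolar RNPs also called Nopp140, had ratios of -0.05 on LATS2 and -0.07 on LATS2N, with all 3 probe sets below control on both. As deposited, the 6 measured snoRNP genes had a median ratio of 0.05 on LATS2, with 4 above 0, and of -0.03 on LATS2N, with 3 above 0. Under the other processing settings described below, the lowest FBL ratios against control were -0.008 on LATS2 and -0.096 on LATS2N. Those of NHP2 were 0.14 and 0.065.

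Of the 3 measured abundant nucleolar proteins, NPM1 and NCL read slightly above control on both construct arrays as deposited, while after quantile normalization they stood at -0.02 and -0.08 on LATS2N. NPM1, a histone and ribosome chaperone of the outer nucleolus, read 37476 on LATS2 and 37340 on LATS2N, against 34281 on control, and its log2 ratios were 0.13 and 0.12. All 3 NPM1 probe sets were above control on both arrays, with ratios from 0.07 to 0.17. The NPM1 gene has many processed copies in the genome and its probe sets are of types that can share targets, so these values may not come from NPM1 alone. NCL, nucleolin, which binds nascent ribosomal RNA, read 17511 on LATS2 and 16865 on LATS2N, against 16719 on control, ratios of 0.07 and 0.01.

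DDX21, an RNA helicase that links polymerase I transcription to processing, differed between the constructs in its brighter probe set. It read 22168 on LATS2, against 25726 on LATS2N and 24446 on control, with log2 ratios against control of -0.14 on LATS2 and 0.07 on LATS2N. Its other probe set read 14551 on LATS2 and 15709 on LATS2N, against 16884 on control. Both probe sets placed LATS2 lowest, and they disagreed on whether LATS2N stood above control.

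The small subunit pathway was the largest role group and mostly read below control. Of its 17 genes, 14 read below control on LATS2 and 13 on LATS2N, with median log2 ratios of -0.04 and -0.11. The control array held the highest signal of 10 of the 17 and the lowest of none. RRP9, a protein bound to the U3 small nucleolar RNA that guides the first cuts of the precursor, read 1355 on LATS2, against 836.2 on LATS2N and 1134 on control. Its signal was 1.62-fold higher on LATS2 than on LATS2N, a log2 ratio of 0.70, where the robust SD between probe sets at that brightness was 0.14. That SD holds no difference between cultures, and RRP9 is the member with the widest range over the arrays. Against control RRP9 had ratios of 0.26 on LATS2 and -0.44 on LATS2N, so the control array lay between the constructs. RRP9 has 1 probe set, and no second one could be set against it.

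UTP20 and RRP12 were below control with both constructs. UTP20, a large scaffold of the processome, read 2882 on LATS2 and 2821 on LATS2N, against 3665 on control, log2 ratios of -0.35 and -0.38. RRP12, which in yeast takes part in export of both subunits, read 1468 on LATS2 and 1256 on LATS2N, against 1755 on control, ratios of -0.26 and -0.48. A dimmer second usable RRP12 probe set was also below control on both, at -0.34 and -0.19.

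WDR75, a member of the processome subcomplex that couples transcription to early processing, stood 1.37-fold below control on the LATS2 array in its only probe set. It read 1182 on LATS2, against 1551 on LATS2N and 1615 on control, with log2 ratios of -0.45 against control and -0.39 against LATS2N. HEATR1, UTP15 and WDR43 belong with it to that early complex. Their ratios on LATS2 against control were -0.19 for HEATR1, -0.13 for UTP15 and -0.23 for WDR43. On LATS2N they were -0.13, -0.11 and 0.01. UTP4, from the same subcomplex and not a member, read 7971 on LATS2 and 7985 on LATS2N, against 7247 on control, so the complex did not move in 1 direction. A dimmer UTP15 probe set also read lowest on control. All 3 usable HEATR1 probe sets were below control on both arrays, between -0.19 and -0.02.

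In UTP3 and NOL6 control was again highest, and LATS2N was lowest. UTP3 read 2801 on LATS2, against 2324 on LATS2N and 2845 on control, and its log2 ratio was 0.27 for LATS2 against LATS2N. NOL6 read 457.9 on LATS2, 406.2 on LATS2N and 497.2 on control, and was the only member under 500 on every array. NOL6 had 2 usable probe sets, which both placed LATS2N lowest but disagreed on LATS2, at -0.12 and 0.31 against control.

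IMP3 and IMP4, partners in the U3 particle, changed little, with log2 ratios against control of -0.01 and -0.04 on LATS2 and 0.14 and 0.04 on LATS2N. Among the late factors BYSL, NOB1, LTV1 and TSR1, LTV1 was the farthest below control by the brightest probe set. BYSL had ratios of -0.02 and 0.03, the endonuclease NOB1, which makes the last cut of small subunit RNA, 0.06 and -0.11, and the late factor LTV1 -0.26 and -0.15 on LATS2 and LATS2N. TSR1, a GTPase-like factor of late small subunit maturation, read 5484 on LATS2 and 5498 on LATS2N, against 5559 on control. Its brightest probe set therefore gave -0.02 on both arrays, while the other 3, all dimmer, gave -0.25, -0.33 and -0.54 on LATS2 against control.

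**Figure D3:**
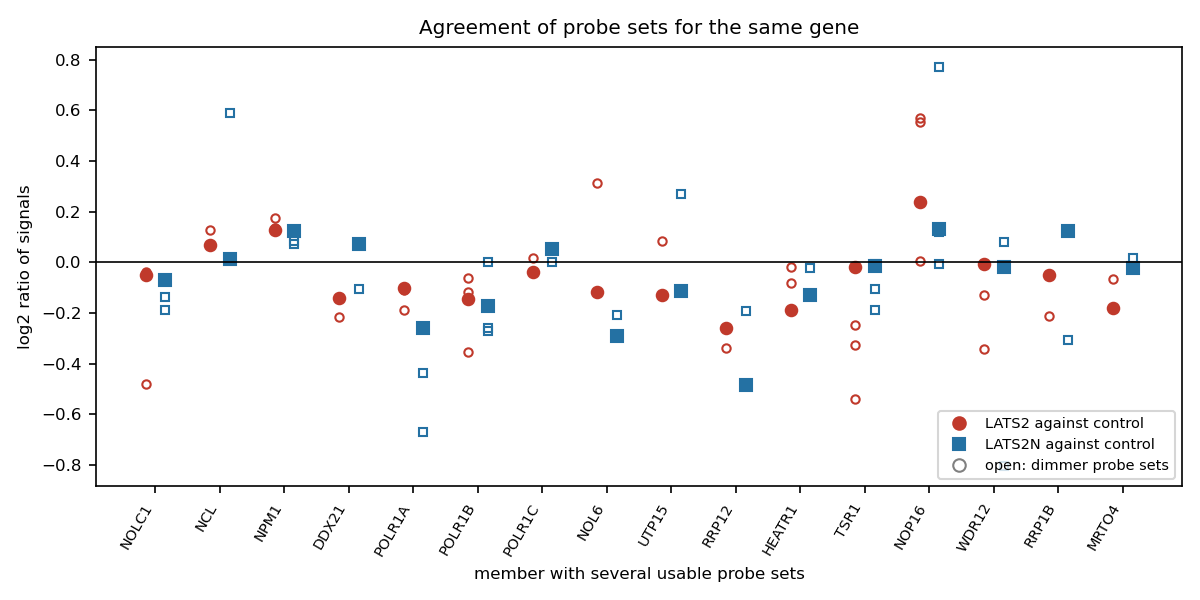
Log2 ratios against control of each usable probe set (mean log2 signal at or above the floor) for the 16 members that have several; circles, LATS2; squares, LATS2N; filled symbols, the probe set that stands for the gene. Probe sets of NPM1 lie above 0 and those of POLR1A, RRP12, TSR1 and HEATR1 below 0 on both arrays. Probe sets of the same gene differ in sign for 3 of the 16 members on LATS2 and for 8 on LATS2N, UTP15 among them on both.

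Large subunit assembly showed small differences in both directions. Of 7 measured genes, 5 were below control on LATS2 and 5 on LATS2N, with median log2 ratios of -0.05 and -0.02. NOP16, a nucleolar protein of the early large subunit, was the highest, with 9587 on LATS2 and 8902 on LATS2N, against 8121 on control, ratios of 0.24 and 0.13. A second bright NOP16 probe set read 4432 on LATS2 and 4400 on LATS2N, against 4419 on control, so the raised signal was not seen in both. PES1, which forms a complex with WDR12 and BOP1, read 3462 on LATS2 and 3523 on LATS2N, against 3981 on control, and was the lowest on LATS2, at -0.20.

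RRS1, which helps bring the 5S ribosomal RNA into the subunit, read 3303 on LATS2 and 2908 on LATS2N, against 3611 on control. At -0.31 it was the lowest of this group on LATS2N. NOP2, an RNA methyltransferase, read 5385 on LATS2, 4645 on LATS2N and 5119 on control, so the constructs stood on either side of control. The brightest RRP1B probe set read 11421 on LATS2, 12868 on LATS2N and 11819 on control, on either side of control in the other order. A dimmer RRP1B probe set put both constructs below control, with 392.4 on LATS2 and 367.2 on LATS2N, against 454.2 on control. MRTO4, related to a ribosomal stalk protein, had ratios of -0.18 on LATS2 and -0.02 on LATS2N.

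Further genes of ribosome assembly, from wider lists of the same roles, also read below control more often than above. Of 39 measured small subunit genes, 21, or 53.8%, were below control on LATS2 and 27, or 69.2%, on LATS2N, with medians of -0.05 and -0.06. Of 42 large subunit genes above the floor, 26 and 30 were below control, with a median of -0.06 on both. The RNA exosome, which trims the ends of precursors, had medians of -0.10 and -0.03 over 12 genes. Across these lists and that of polymerase I, 67 of 108 genes, 62%, were below control on LATS2 and 72 of 108, 66.7%, on LATS2N. Of all genes above the floor, 45.2% and 46.4% were below control. The helicase gene DDX27 had the highest ratio on LATS2, 4792 on LATS2 and 3813 on LATS2N, against 3432 on control, a log2 ratio of 0.48. URB2, a large subunit factor, was low on LATS2N alone, with 805.7 there, against 1175 on LATS2 and 1128 on control.

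Other named genes of these lists also stayed under 1.5-fold. EXOSC9, a ring subunit of the exosome, was lowest on LATS2, with 3008 there, 3850 on LATS2N and 3913 on control. EXOSC6, another ring subunit, had log2 ratios of 0.17 and -0.08 against control. Among small subunit genes BMS1, a GTPase of the processome, stood at -0.21 on LATS2 and -0.40 on LATS2N, and ESF1 at -0.37 and -0.11.

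Ribosomal RNA itself was read by 3 control probe sets for 18S ribosomal RNA, directed at its 5′ part, middle and 3′ part. The 5′ probe set read 12415 on LATS2 and 17421 on LATS2N, against 22536 on control. The middle one read 6632 on LATS2 and 10612 on LATS2N, against 17278 on control. The 3′ one read 4419 on LATS2 and 5258 on LATS2N, against 10939.7 on control. All 3 were thus lowest on LATS2, intermediate on LATS2N and highest on control. Their log2 ratios ran from -1.38 to -0.86 on LATS2 and from -1.06 to -0.37 on LATS2N against control.

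No gene of ribosome production moved as far as these probe sets on the LATS2 array. There the lowest member was WDR75 at -0.45, so 0 of 38 members lay below the highest of the 18S ratios. On LATS2N 3 of 38 members lay below the highest 18S ratio, -0.37, and none below the middle one, -0.70. Control probe sets for the messenger RNAs of GAPDH and ACTB did not follow 18S: their log2 ratios ran from 0.02 to 0.18 on LATS2 and from -0.03 to 0.22 on LATS2N. Ribosomal RNA has no long poly(A) tail, and the labelling is described only as the manufacturer's standard protocol from 6 ug of total RNA. These signals are therefore no measure of the amount of ribosomal RNA per cell, and the part of labelling in them was not tested.

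**Figure D4:**
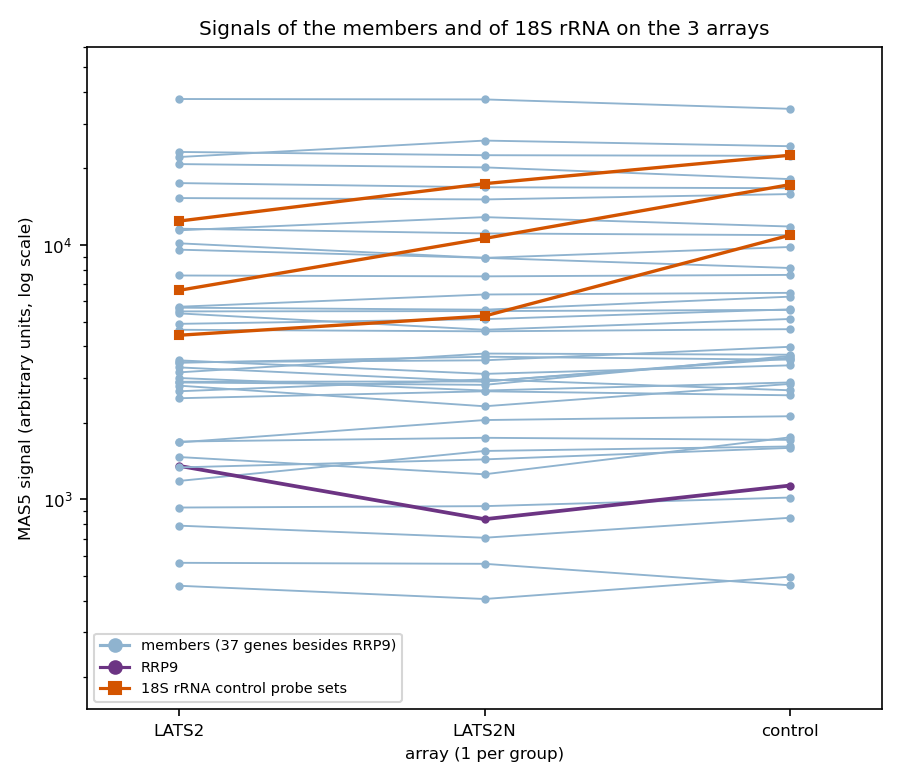
MAS5 signal on a log axis for each measured member (circles) and for the 3 probe sets of 18S ribosomal RNA (orange squares) on the LATS2, LATS2N and control arrays; lines join the values of the same probe set. The 18S lines are lowest on LATS2 and highest on control (4419 and 10939.7 in the lowest line), the members' lines are nearly level, and RRP9 (purple) dips to 836.2 on LATS2N.

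Assembly and polymerase genes leaned the opposite way to the genes of the ribosome's own proteins in the values as deposited. The control array held the lowest signal of 7 of the 38 members and of 51 of the 53 measured cytosolic ribosomal protein genes. Of 52 cytosolic ribosomal protein genes above the floor, 50 exceeded control on LATS2 and 51 on LATS2N, with median log2 ratios of 0.10 and 0.13. That lean depended on scaling. After quantile normalization of the arrays the members' medians were -0.03 on LATS2 and -0.09 on LATS2N, and those of the cytosolic ribosomal protein genes were 0.01 on both, with 30 and 31 of the 52 above control. Mitochondrial ribosomal protein genes, 75 in number, had medians of 0.02 and 0.06, with 42 and 54 above control. Without replicate arrays the difference between these lists was not tested.

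**Figure D5:**
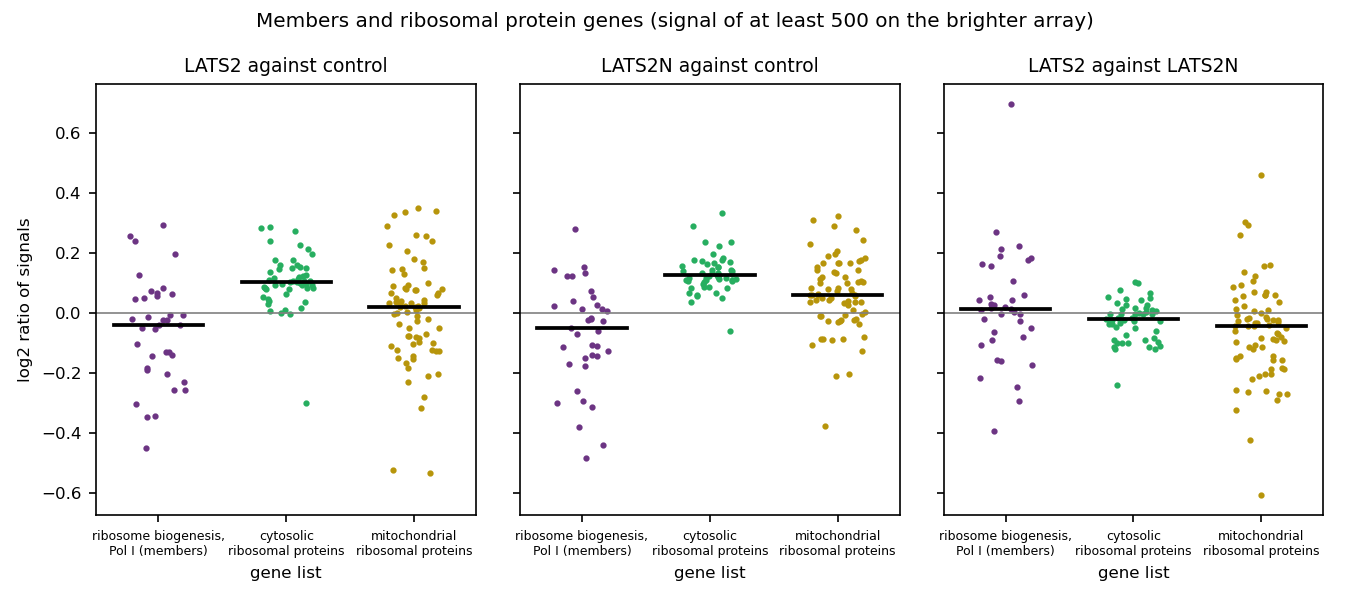
Log2 ratio of signals in the 3 comparisons for members, cytosolic and mitochondrial ribosomal protein genes that read 500 or more on either array compared; each point is a gene, bars are medians, and horizontal jitter has no meaning. Cytosolic ribosomal protein genes sit mostly above 0 against control, with 49 and 50 of 51 above it, while members spread on both sides of 0.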

How the data were processed

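The authors deposited linear intensities per probe set. The submitters' processing notes name MAS5, with version and settings not given in the sources used here, and the values show scaling of the arrays to the same trimmed mean. Of 54675 probe sets, 41091 that are not controls carry 1 gene symbol, updated through gene identifiers to RefSeq (GRCh38.p14). Signals below the median over the 3 arrays, 50.5, were raised to it before log2 ratios were taken. No test was run, since each group has 1 array, and the number of arrays limits the precision. Sizes of 2-fold and 1.5-fold were counted for members and for all genes. Noise was the robust SD of the difference between log2 ratios of the 2 brightest probe sets of a gene, divided by the square root of 2. The 2-fold size call was checked on simulated signals with known fold changes that were all larger than 2-fold. The 1.5-fold size was not checked in this way. Members with values in the text are those at least 1.5-fold apart in any comparison and, per role, the brightest, highest and lowest, with others given for their role. The members, gene lists and settings were chosen with earlier results of these data known. Python 3.11.15, pandas 2.3.3 and numpy 2.4.6 were used.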

Additional observations from a re-analysis of the deposited data

How the results depend on the processing

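No paired analysis was possible because each group has 1 array, and no array could be left out. Floors at the 25th and 75th percentile, no floor, the median over probe sets, leaving out probe sets of possible shared targets, quantile normalization, centring on the median of all genes and a limit of 500 on the brighter array were tried. The members' medians moved by less than 0.1 on the log2 scale under each of them, no member became 2-fold higher or lower under any, and the medians for 18S stayed within 0.1 under those that apply to them. With the median over probe sets, which takes in dim ones, the members at least 1.5-fold lower became 1 for LATS2 against control, 3 for LATS2N against control and 2 for LATS2 against LATS2N, in place of 0. Without probe sets of possible shared targets fewer genes remain: 1 member (NCL, from a dim probe set, log2 ratio 0.59) became 1.5-fold higher on LATS2N than on control, 3 members were lowest on control, the cytosolic ribosomal protein genes above 0 were 21 of 24 for LATS2 against control, 19 of 24 for LATS2N against control and 11 of 24 for LATS2 against LATS2N, and the mitochondrial ones 24 of 42 and 30 of 43 against control. After quantile normalization 3 members were lowest on control, 9 were above control on LATS2N in place of 14, and the cytosolic ribosomal protein genes above control were 30 on LATS2 and 31 on LATS2N, with a median of 0.0079 on LATS2N. Of 487 values of single named genes, 33 moved by more than the noise between probe sets. For NCL, NOP16, RRP12, PES1, POLR1A and TSR1, among others, the choice of probe set decides the size.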
